A study of Mus musculus with 26 samples.

Results

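Sox1, Sox3, Pax3, Pax6, Nes, Cdh2, Olig2, Zic1, Nkx6-1 and Irx3 are 10 genes used to follow the identity and the dorsal-to-ventral patterning of neural progenitors. They were picked by GENCODE M21 symbol, through Ensembl gene IDs without version, from a table of read counts for 55471 genes. All 10 were found, and all 10 were among the 18412 genes that passed the low-count filter. The counts came from 26 bulk RNA-seq libraries of KH2, a mouse embryonic stem cell line, differentiated with retinoic acid and harvested at days 0, 2 and 4. The groups were wild type (WT), a line labelled as a knockout of the alpha form of NAP1L1 (alphaKO here) and a line labelled as a NAP1L1 knockout (fullKO here), NAP1L1 being a histone chaperone. Each genotype had 3 libraries a day, except fullKO at day 0, which had 2, and the question was how transcription differed between WT and the knockout lines along the differentiation. The labels used here name neither dose nor medium, and all groups at days 2 and 4 received retinoic acid, so its action and time in culture cannot be told apart. The design text speaks of 2 knockout lines, and the library names of each share a prefix, so what is particular to a line and what belongs to its genotype cannot be told apart either.

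A neural progenitor is a dividing cell of the neural plate or tube that can give rise to neurons and glia. The SoxB1 factors SOX1 and SOX3 mark such cells, nestin (Nes) is their intermediate filament protein, and N-cadherin (Cdh2) is the adhesion molecule that replaces E-cadherin as the neural plate forms. Along the dorsal-to-ventral axis, PAX3 and ZIC1 mark dorsal progenitors, PAX6 and IRX3 intermediate ones, and NKX6-1 and OLIG2 ventral ones, under the opposing influence of Hedgehog signals from below and BMP and WNT signals from above, while retinoic acid promotes neural fate and a posterior address.

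Total counts ran from 13537267 to 20569706 a library, mitochondrial genes took 1.08% to 2.04% of them. On the second principal component replicate 3 of alphaKO at day 0 lay between its own group and WT of that day. Without it the differences of alphaKO from WT at day 0 were 0.72 for Sox1, -2.29 for Sox3, -2.62 for Pax6, -0.44 for Nes, -0.99 for Cdh2 and -1.08 for Irx3, all called, and Nkx6-1 lost its calls against WT and fullKO at day 0, while no other call of the 10 genes changed. Levels are given as CPM, a gene's count scaled to the size of its library, with library sizes normalised by TMM. A gene is called, and said to have risen or fallen, where edgeR's quasi-likelihood test, fitted across all 18412 genes, gave a Benjamini-Hochberg adjusted p under 0.05, and a value after ± is the SE of a log2 fold change unless SD is written. The labels do not say that replicates were separate cultures, so the p-values reflect only how far these libraries spread, and that may be technical. Nap1l1, the targeted gene, was lower in both lines on each day, at log2 fold changes of -0.77, -0.47 and -0.20 for alphaKO on days 0, 2 and 4, and of -1.36, -1.23 and -0.79 for fullKO. At day 0 none of 14 pluripotency markers was at 0 in any genotype. The same held for 15 fibroblast markers, so detection alone does not settle cell identity.

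In WT, 8 of the 10 genes rose between day 0 and day 2, Olig2 fell, and Sox3 did not pass the test. Of all genes tested 70.7% were called in this comparison, 36.7% as rises and 34% as falls. The 8 rises among 10 are a larger share than that over all genes. The members were chosen with earlier results of these data known, so the larger share is a description and carries no test. The median log2 fold change of the 10 was 2.85, against 0.06 over all genes tested. From day 2 to day 4 the genes parted in WT. Pax3, Zic1, Nes and Cdh2 went on rising, Sox1, Sox3, Olig2 and Nkx6-1 fell, and Pax6 and Irx3 did not pass the test. The 4 rises and 4 falls stand beside 59.4% of all genes called, 30.2% as rises and 29.2% as falls. In both knockout lines 9 genes rose and Olig2 fell between days 0 and 2. Over all genes, alphaKO had 68% called there (34.5% rises, 33.5% falls) and fullKO 65% (33.5% rises, 31.4% falls). Between days 2 and 4, alphaKO had 6 rises and 3 falls among the members, beside 58.2% of all genes called (30.1% rises, 28.1% falls). The 6 rises and 4 falls of fullKO stand beside 58.5% (29.6% rises, 28.9% falls).

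**Figure D1:**
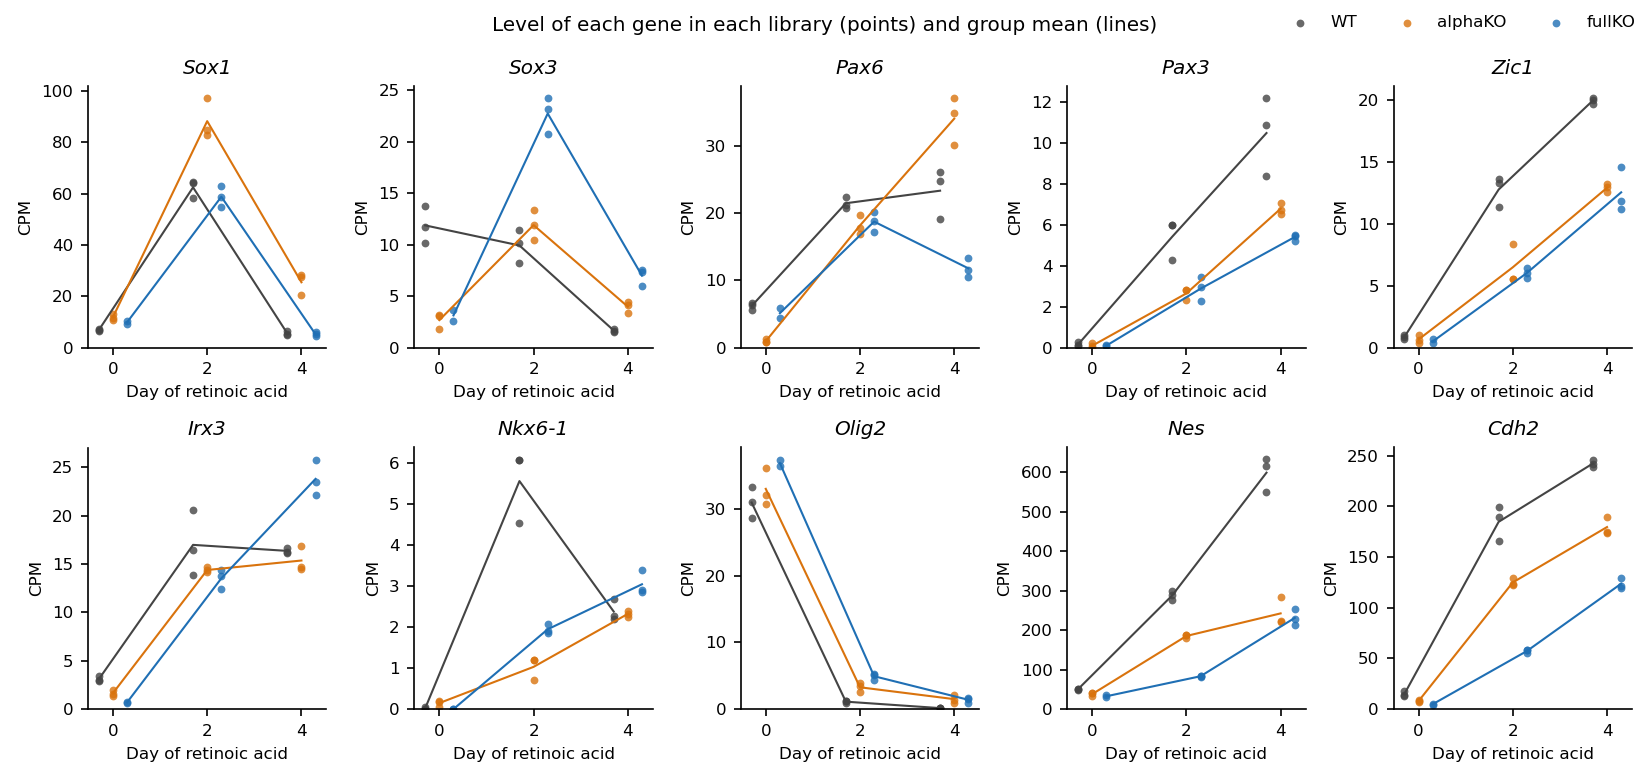
CPM of each of the 10 genes (vertical axis, a scale for each panel, starting at 0) against day of retinoic acid; each point is a library, lines join group means, and WT and fullKO points are moved sideways by the same small step to keep them visible. Sox1 peaks at day 2 in all genotypes, Olig2 starts high and falls, and Nes and Cdh2 rise with WT above both knockout lines.

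**Figure D2:**
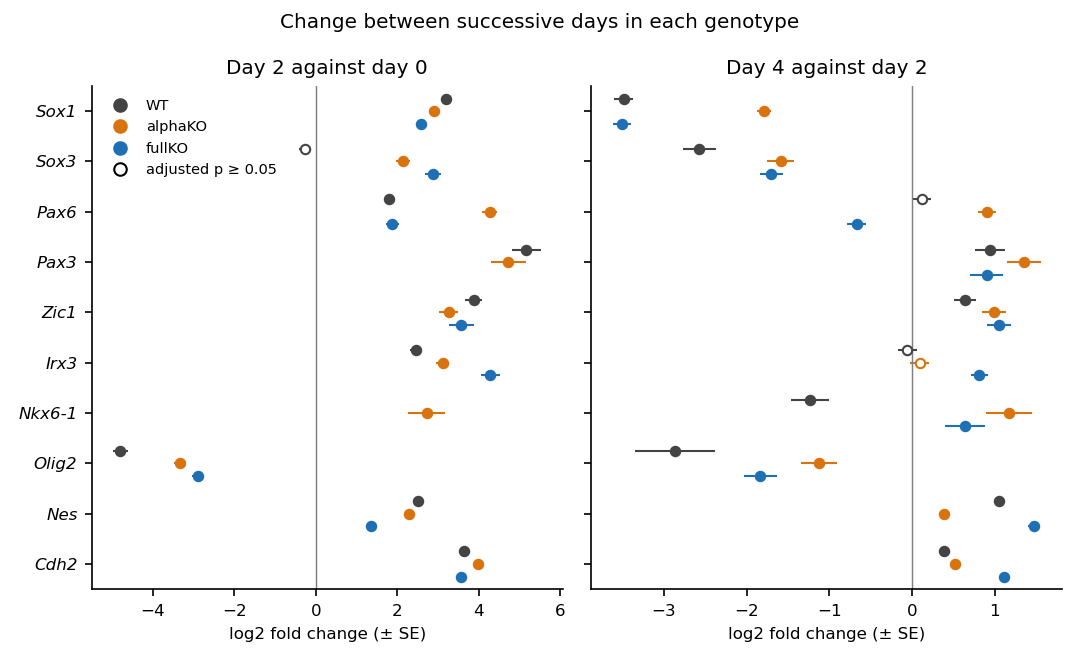
log2 fold change with its SE (horizontal axis, a scale for each panel) of each gene between successive days in WT, alphaKO and fullKO, with open symbols where the adjusted p was 0.05 or more. Sox3 moves in opposite directions from day 0 to 2 in WT (-0.26, not called) and in the knockout lines (2.15 and 2.87), and changes that rest on a group with 3 counts or fewer are not drawn.

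Against WT, some members differed the same way in both lines and others did not. The structural genes Nes and Cdh2 were lower in both knockout lines on all 3 days, the dorsal genes Pax3 and Zic1 were lower in both on days 2 and 4, and the ventral gene Olig2 was higher in both on those days. Nkx6-1, the other ventral gene, went the opposite way to Olig2 at day 2. It was lower than WT there, at -2.43 in alphaKO and -1.51 in fullKO, and passed in neither line at day 4. Sox1, Sox3, Pax6 and Irx3 differed between the lines or turned direction between days. At day 0 alphaKO had 2 members higher and 5 lower, where 38.6% of all genes were called (17.7% higher, 20.9% lower), and fullKO 1 higher and 4 lower, where 33.9% were (16.2% higher, 17.7% lower). At day 2 alphaKO again had 2 higher and 5 lower, beside 40.2% of all genes called (19.9% higher, 20.3% lower). In fullKO 2 were higher and 6 lower, beside 47.6% (23.8% in each direction). By day 4, 4 were higher and 4 lower in alphaKO, where 52.7% of all genes were called (28.7% higher, 24% lower). For fullKO it was 3 higher and 5 lower, where 49.6% were called (25.1% higher, 24.5% lower), so the share of members called at day 4 was 8 of 10 in both lines. The median log2 fold change of the 10 in alphaKO was -0.50, -0.40 and -0.06 on days 0, 2 and 4. In fullKO it was -0.71, -0.62 and -0.39, while those of all genes tested lay between -0.03 and 0.06. Both lines are compared with the same WT libraries, so their values are given side by side and not as independent of each other.

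**Figure D3:**
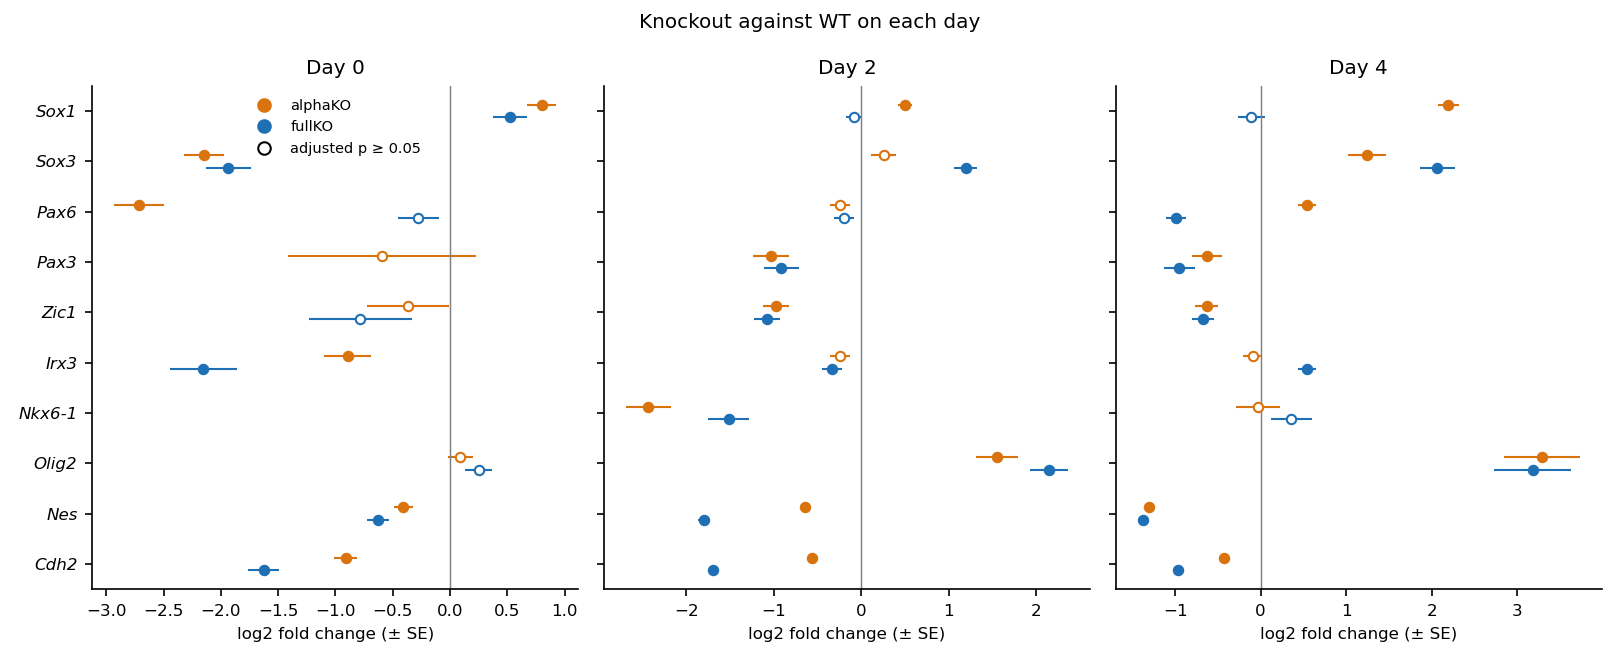
log2 fold change with its SE against WT (horizontal axis, a scale for each day) of each gene in alphaKO and fullKO, with open symbols where the adjusted p was 0.05 or more; comparisons with a group of 3 counts or fewer are not drawn. Nes and Cdh2 stay left of 0 on all days, and Olig2 lies to the right on days 2 and 4, at 3.29 in alphaKO and 3.18 in fullKO on day 4.

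Sox1 (chromosome 8, 12395295 to 12400126, GRCm38), the earliest SoxB1 gene restricted to neural plate, peaked at day 2 in all genotypes and then fell. WT libraries had 7.13, 6.64 and 6.73 CPM at day 0, 58.5, 64.3 and 64.6 at day 2 and 5.004, 5.24 and 6.38 at day 4. The change was 3.19 ± 0.11 from day 0 to 2 (adjusted p = 1.41e-28) and -3.48 ± 0.11 from day 2 to 4 (adjusted p = 1.21e-28), which left the gene near its starting level in WT. In alphaKO the libraries stood at 10.9, 11.6 and 13.1, then 84.7, 97.3 and 82.9, then 20.5, 28.4 and 27.5 CPM. Each alphaKO library lay above each WT library of its day, by 0.80 ± 0.13 at day 0, 0.50 ± 0.08 at day 2 and 2.19 ± 0.12 at day 4 (adjusted p = 5.73e-20 at day 4). The fullKO libraries had 9.34 and 10.4, then 63.0, 58.8 and 54.7, then 6.03, 5.17 and 4.34 CPM. They lay above WT at day 0, by 0.52 ± 0.15 (adjusted p = 0.00516), and overlapped it at days 2 (-0.09 ± 0.08, adjusted p = 0.411) and 4 (-0.11 ± 0.16, adjusted p = 0.598). Without replicate 2 of fullKO at day 0 its difference was 0.45 (adjusted p = 0.0798). Sox1 at day 4 was thus higher in alphaKO than in fullKO, by 2.30 ± 0.12 (adjusted p = 6.05e-20). The fall from day 2 to 4 was less steep in alphaKO than in WT by 1.69 ± 0.15 (adjusted p = 1.68e-12), and the difference in that fall between fullKO and WT did not pass the test. The rise from day 0 to 2 was smaller in fullKO than in WT by a difference of -0.61 ± 0.17 (adjusted p = 0.00516), or -0.55 without replicate 2 of fullKO at day 0 (adjusted p = 0.0516). These are bulk libraries, in which more cells of a type and more RNA in each cell cannot be told apart, and this holds for all values that follow. The exons of Sox1 share 86 bases with the miRNA gene Gm25239 on the same strand, so reads from those bases cannot be assigned with certainty.

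Sox3 (chromosome X, 60891366 to 60893430), the SoxB1 gene already expressed in pluripotent cells and kept in progenitors, turned from lower to higher in the knockout lines. At day 0 WT libraries had 13.8, 11.7 and 10.2 CPM, alphaKO libraries 1.80, 3.05 and 3.15, and fullKO libraries 2.62 and 3.63. The knockout libraries all lay below those of WT, by -2.15 ± 0.17 in alphaKO (adjusted p = 3.16e-14) and -1.94 ± 0.20 in fullKO (adjusted p = 3.94e-11). At day 2 WT had 11.4, 8.26 and 10.1 CPM, alphaKO 11.9, 13.4 and 10.5, and fullKO 23.2, 24.3 and 20.8. Here alphaKO overlapped WT (0.26 ± 0.14, adjusted p = 0.155), while all fullKO libraries were above both other genotypes (1.19 ± 0.14 against WT, adjusted p = 3.91e-10). At day 4 WT stood at 1.60, 1.85 and 1.55 CPM, alphaKO at 4.41, 3.40 and 4.12, and fullKO at 6.03, 7.39 and 7.56. The order WT, alphaKO, fullKO held without overlap at day 4, with 1.24 ± 0.23 for alphaKO (adjusted p = 7.34e-06) and 2.07 ± 0.20 for fullKO (adjusted p = 7.23e-12) against WT. Over days 0 to 2, Sox3 did not pass the test in WT (-0.26 ± 0.14, adjusted p = 0.106), though without replicate 3 of WT at day 0 it fell by 0.36 (adjusted p = 0.0402) and without replicate 1 of WT at day 2 by 0.37 (adjusted p = 0.0429). It rose by 2.15 ± 0.17 in alphaKO and 2.87 ± 0.19 in fullKO, and these changes exceeded that of WT by 2.41 ± 0.23 (adjusted p = 7.53e-12) and 3.13 ± 0.24 (adjusted p = 1.85e-14). All 3 genotypes lost Sox3 between days 2 and 4, WT by -2.57 ± 0.20, alphaKO by -1.59 ± 0.16 and fullKO by -1.70 ± 0.14. The loss was smaller than in WT by 0.98 ± 0.27 in alphaKO (adjusted p = 0.00398) and 0.87 ± 0.25 in fullKO (adjusted p = 0.00831).

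Pax6 (chromosome 2, 105668900 to 105697364), a factor of intermediate progenitors and of the developing eye and forebrain, rose in all genotypes from day 0 to 2 and then went on rising in alphaKO while it fell in fullKO. WT libraries had 5.55, 6.64 and 6.34 CPM at day 0, 21.2, 20.8 and 22.4 at day 2 and 19.1, 26.1 and 24.8 at day 4. WT rose by 1.80 ± 0.13 from day 0 to 2 (adjusted p = 1.11e-16), and the later change did not pass the test (0.13 ± 0.11, adjusted p = 0.328). At day 0 alphaKO stood at 0.755, 1.23 and 0.827 CPM, all below WT and fullKO, a log2 fold change of -2.71 ± 0.22 against WT (adjusted p = 3.16e-14). It reached 17.8, 19.7 and 16.9 CPM at day 2, a rise of 4.27 ± 0.18 that exceeded the rise in WT by 2.47 ± 0.25 (adjusted p = 6.22e-11). At day 4 alphaKO had 30.1, 34.9 and 37.04 CPM, all above WT, by 0.54 ± 0.10 (adjusted p = 2.4e-05). In fullKO the libraries had 4.34 and 5.88, then 17.1, 20.2 and 18.8, then 11.5, 13.3 and 10.4 CPM. They did not differ from WT by the test at days 0 (-0.28 ± 0.18, adjusted p = 0.242) and 2 (-0.20 ± 0.11, adjusted p = 0.14). At day 4 all fullKO libraries lay below all WT libraries, by -0.99 ± 0.12 (adjusted p = 6.12e-10), after a fall of -0.67 ± 0.12 from day 2 (adjusted p = 2.53e-06). Over the later step the change exceeded that of WT by 0.78 ± 0.15 in alphaKO (adjusted p = 7.38e-05) and fell short of it by a difference of -0.79 ± 0.16 in fullKO (adjusted p = 0.000147). Between the lines Pax6 was thus lower in alphaKO at day 0 (-2.44 ± 0.25, adjusted p = 7.39e-11) and higher in alphaKO at day 4 (1.53 ± 0.11, adjusted p = 3.53e-15). At day 2 alphaKO was at -0.24 ± 0.11 against WT, which did not pass (adjusted p = 0.0786), but did where only these groups were fitted (-0.25, adjusted p = 0.0222).

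Irx3 (chromosome 8, 91798525 to 91802067), an Iroquois factor expressed above the ventral progenitor domains, was low at day 0 in both knockout lines and ended highest in fullKO. WT had 2.98, 3.38 and 2.90 CPM at day 0, alphaKO 1.34, 1.59 and 2.02, and fullKO 0.655 and 0.727, with no overlap between any of these. Against WT the differences were -0.89 ± 0.21 (adjusted p = 0.000406) and -2.15 ± 0.29 (adjusted p = 5.75e-08). At day 2 WT libraries had 16.5, 13.9 and 20.55 CPM, those of alphaKO 14.3, 14.7 and 14.1, and those of fullKO 13.7, 14.4 and 12.4. The groups overlapped, and 1 WT library was well above the rest. The fullKO difference of -0.33 ± 0.11 (adjusted p = 0.0127) was -0.17 (adjusted p = 0.257) without that library, replicate 3 of WT, and -0.27 (adjusted p = 0.0704) without replicate 3 of fullKO. The alphaKO difference of -0.24 ± 0.11 did not pass (adjusted p = 0.0814), and was -0.37 (adjusted p = 0.0108) without replicate 2 of WT. At day 4 WT had 16.1, 16.7 and 16.3 CPM, alphaKO 16.9, 14.7 and 14.5, and fullKO 23.4, 25.8 and 22.2. WT and alphaKO overlapped (-0.09 ± 0.11, adjusted p = 0.519), and all fullKO libraries were above both, by 0.54 ± 0.11 against WT (adjusted p = 3.7e-05) and a log2 fold change of alphaKO against fullKO of -0.63 ± 0.11 (adjusted p = 6.5e-06). The rise from day 0 to 2 was 2.46 ± 0.14 in WT, 3.11 ± 0.16 in alphaKO and 4.28 ± 0.23 in fullKO. It exceeded that of WT by 1.82 ± 0.32 in fullKO (adjusted p = 1.49e-05) and by 0.65 ± 0.23 in alphaKO (adjusted p = 0.0279). The alphaKO value lost its call where no low-count filter was used (0.65, adjusted p = 0.0596), where only these groups were fitted (0.65, adjusted p = 0.0511), and without replicate 2 of WT at day 0 (0.58, adjusted p = 0.0811), replicate 2 of WT at day 2 (0.53, adjusted p = 0.0715), or replicate 1 (0.52, adjusted p = 0.117) or 2 (0.61, adjusted p = 0.0691) of alphaKO at day 0. From day 2 to 4 Irx3 rose in fullKO (0.82 ± 0.11) and did not pass in WT (-0.06 ± 0.11) or alphaKO (0.09 ± 0.11), and the fullKO change exceeded that of WT by 0.87 ± 0.15 (adjusted p = 2.39e-05). Irx3 shares 124 exon bases with Irx3os on the opposite strand, and no label says whether counting used strand, so reads of that pair are uncertain.

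Pax3 (chromosome 1, 78101267 to 78197134), a factor of dorsal progenitors and neural crest, was all but absent at day 0 and rose at each step. The day 0 counts summed over libraries were 7 in WT, 5 in alphaKO and 3 in fullKO. WT libraries had 6.01, 4.27 and 5.996 CPM at day 2, against 2.34, 2.80 and 2.81 in alphaKO and 2.94, 3.43 and 2.26 in fullKO. Every knockout library lay below every WT library, by -1.03 ± 0.21 in alphaKO (adjusted p = 6.64e-05) and -0.91 ± 0.20 in fullKO (adjusted p = 0.000205). At day 4 WT stood at 12.2, 10.9 and 8.39 CPM, alphaKO at 6.55, 6.74 and 7.07, and fullKO at 5.22, 5.48 and 5.53. The groups again did not overlap, with -0.62 ± 0.18 in alphaKO (adjusted p = 0.00265) and -0.95 ± 0.18 in fullKO (adjusted p = 1.65e-05). Between days 2 and 4 Pax3 rose in each genotype, by 0.94 ± 0.18 in WT, 1.35 ± 0.20 in alphaKO and 0.90 ± 0.20 in fullKO, and neither knockout line's rise differed from that of WT by the test. In fullKO 171 counts at day 2 stood against 3 at day 0, a ratio of 30.8 with a 95% interval of 10.4 to 150.8 that covers counting error only. Chromosome 1 as a whole ran the other way: the median log2 fold change of its 1114 other tested genes was 0.42, 0.40 and 0.50 in alphaKO and 0.27, 0.27 and 0.34 in fullKO on days 0, 2 and 4. Among the 78 tested genes within 5 Mb of Pax3 it was 0.50, 0.50 and 0.55 in alphaKO and 0.44, 0.41 and 0.55 in fullKO. Pax3 was thus lower in both lines on a chromosome whose genes were mostly higher. Medians for the chromosomes of the other 9 members lay between -0.11 and 0.06.

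Zic1 (chromosome 9, 91358058 to 91365810), a zinc finger factor of the dorsal neural tube, followed nearly the same course as Pax3. WT libraries had 0.818, 1.05 and 0.726 CPM at day 0, 11.4, 13.3 and 13.6 at day 2 and 20.02, 20.1 and 19.7 at day 4. In alphaKO they had 0.581, 0.352 and 1.03, then 5.54, 8.35 and 5.56, then 12.98, 12.6 and 13.2 CPM. In fullKO they had 0.655 and 0.330, then 6.43, 5.64 and 6.002, then 14.6, 11.8 and 11.2 CPM. At days 2 and 4 every knockout library was below every WT library, and the lines overlapped each other. The differences from WT were -0.97 ± 0.15 (adjusted p = 5.03e-07) and -1.08 ± 0.15 (adjusted p = 3.61e-08) at day 2, for alphaKO and fullKO, and -0.63 ± 0.13 (adjusted p = 8.55e-05) and -0.67 ± 0.13 (adjusted p = 3.39e-05) at day 4. At day 0 neither passed (-0.36 ± 0.36, adjusted p = 0.462, and -0.78 ± 0.45, adjusted p = 0.181). The rise from day 0 to 2 was 3.87 ± 0.21 in WT, 3.26 ± 0.24 in alphaKO and 3.57 ± 0.31 in fullKO, and the rise to day 4 was 0.65 ± 0.13, 0.99 ± 0.15 and 1.05 ± 0.15. None of the 4 differences in rise between a knockout line and WT passed the test for Zic1, nor for Pax3, though for Zic1 in alphaKO from day 2 to 4 it did without replicate 2 of alphaKO at day 2 (0.57, adjusted p = 0.0317, against 0.34 and 0.21 with it). Exons of Zic1 and Zic4 share 60 bases on opposite strands, so reads from there are uncertain.

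Nkx6-1 (chromosome 5, 101658139 to 101664996), a homeodomain factor of ventral progenitors, peaked at day 2 in WT and rose throughout in the knockout lines. At day 0 it had 1 count over the WT libraries, 8 over alphaKO and 0 over fullKO. The ratio of alphaKO to WT was 7.25 with a 95% counting interval of 0.971 to 321.5, so the call of alphaKO above WT at day 0 (adjusted p = 0.0487) rests on 9 reads. It was lost with DESeq2 (adjusted p = 0.0826), with no low-count filter (0.15) and without any 1 of 20 libraries (up to 0.166). At day 2 WT had 6.07, 4.54 and 6.06 CPM, alphaKO 1.20, 0.701 and 1.19, and fullKO 2.08, 1.91 and 1.84. The 3 genotypes did not overlap, with alphaKO at -2.43 ± 0.26 (adjusted p = 1.23e-10) and fullKO at -1.51 ± 0.23 (adjusted p = 5.18e-07) against WT. At day 4 WT had 2.68, 2.26 and 2.18 CPM, alphaKO 2.39, 2.25 and 2.32, and fullKO 2.90, 2.84 and 3.38. Neither difference from WT passed then (-0.03 ± 0.25, adjusted p = 0.938, and 0.36 ± 0.24, adjusted p = 0.227). WT went from 1 count to 262 between days 0 and 2, a ratio of 270.9 with a 95% counting interval of 48.2 to 10740, and fullKO went from 0 to 115, at least 20.7-fold when the group's total is set to a floor of 3 counts. WT then fell by -1.23 ± 0.23 (adjusted p = 1.44e-05), while alphaKO rose by 1.17 ± 0.28 (adjusted p = 0.000387) and fullKO by 0.64 ± 0.24 (adjusted p = 0.0213). The fullKO rise was 0.63 (adjusted p = 0.0517) without replicate 2 and 0.61 (adjusted p = 0.0584) without replicate 3 of day 2, 0.56 (adjusted p = 0.082) without replicate 3 of day 4, and 0.67 (adjusted p = 0.0557) with no low-count filter. These changes exceeded that of WT by 2.40 ± 0.37 in alphaKO (adjusted p = 1.1e-06) and 1.87 ± 0.34 in fullKO (adjusted p = 3.18e-05). At day 2 alphaKO was lower than fullKO by -0.92 ± 0.28 (adjusted p = 0.0117), or -0.70 (adjusted p = 0.101) without replicate 2 of alphaKO.

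Olig2 (chromosome 16, 91225457 to 91228677), a basic helix-loop-helix factor of motor neuron and oligodendrocyte progenitors, did not follow its label as a progenitor gene here: in all genotypes it was highest at day 0, before retinoic acid. WT libraries had 31.1, 33.3 and 28.6 CPM at day 0, 0.867, 1.29 and 1.19 at day 2 and 0.145, 0.179 and 0.115 at day 4. The falls were -4.80 ± 0.17 (adjusted p = 1.17e-27) and -2.87 ± 0.48 (adjusted p = 1.5e-06), and the day 4 level in WT rests on 7 counts over 3 libraries. At day 0 alphaKO had 36.2, 30.8 and 32.2 CPM and fullKO 36.4 and 37.4. Neither passed the test against WT (0.09 ± 0.11, adjusted p = 0.541, and 0.25 ± 0.12, adjusted p = 0.0987), though the fullKO value did where only these groups were fitted (0.26, adjusted p = 0.0198). At day 2 alphaKO had 3.88, 3.40 and 2.54 CPM and fullKO 5.22, 5.15 and 4.42, all above WT, by 1.55 ± 0.24 (adjusted p = 5.33e-07) and 2.15 ± 0.22 (adjusted p = 1.59e-11). At day 4 alphaKO had 2.14, 1.37 and 0.965 CPM and fullKO 1.57, 0.981 and 1.64. All of these lay above WT, by 3.29 ± 0.44 (adjusted p = 2.05e-08) and 3.18 ± 0.45 (adjusted p = 5.77e-08). Olig2 thus fell in each genotype at each step. The fall from day 0 to 2 was smaller than in WT by 1.46 ± 0.26 in alphaKO (adjusted p = 1.63e-05) and 1.90 ± 0.25 in fullKO (adjusted p = 6.21e-08). For the later step the difference passed in alphaKO (1.74 ± 0.57, adjusted p = 0.0165), but not without replicate 3 of WT (1.58, adjusted p = 0.0663) or replicate 1 of alphaKO (1.41, adjusted p = 0.0604) at day 4. In fullKO it did not pass (1.03 ± 0.57, adjusted p = 0.204). At day 2 alphaKO was lower than fullKO by -0.60 ± 0.17 (adjusted p = 0.00578), or -0.44 (adjusted p = 0.077) without replicate 3 of alphaKO. Pluripotency markers were mostly higher in the knockout lines on all days: of 14 tested, 9 were higher at day 0 in each line, where Olig2 was not called, 13 were higher at day 2 and 14 at day 4 in alphaKO, and 13 on each of these days in fullKO. Over all genes tested, 17.7%, 19.9% and 28.7% were higher in alphaKO on days 0, 2 and 4, and 16.2%, 23.8% and 25.1% in fullKO. Called lower at day 0 were 3 markers in alphaKO and 2 in fullKO, beside 20.9% and 17.7% of all genes. At day 2, 1 was lower in alphaKO, beside 20.3%. The markers' summed level at day 0 was 4244 to 4460 CPM in WT, 6739 to 7012 in alphaKO and 7064 to 7202 in fullKO. A large part of that difference came from 1 gene, Tfcp2l1, with means of 238.2, 1484 and 1786 CPM. At day 2 the summed level ran from 505.1 to 523.8 CPM in WT, 1426 to 1444 in alphaKO and 2080 to 2220 in fullKO, and no marker was at 0. The part of these markers in the result for Olig2 was not tested.

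Nes (chromosome 3, 87971078 to 87980451), the nestin gene, was the most abundant member per length of transcript at days 2 and 4 in WT and rose at each step in all genotypes. WT libraries had 47.95, 51.2 and 51.9 CPM at day 0, 276.4, 299.2 and 289.4 at day 2 and 615.3, 549.9 and 633.1 at day 4. In alphaKO they had 34.3, 39.8 and 39.6, then 188.2, 186.8 and 181.1, then 283.7, 221.1 and 223.1 CPM. In fullKO they had 34.98 and 29.9, then 84.99, 80.7 and 84.2, then 228.0, 213.2 and 252.5 CPM. Every knockout library lay below every WT library of its day. The differences from WT in alphaKO were -0.41 ± 0.08, -0.64 ± 0.06 and -1.31 ± 0.06 on days 0, 2 and 4 (adjusted p = 5.63e-05, 2.17e-11 and 4.15e-22). In fullKO they were -0.63 ± 0.10, -1.79 ± 0.07 and -1.37 ± 0.06 (adjusted p = 4.87e-07, 7.89e-26 and 9.96e-23). The lines reached similar levels at day 4 by different courses. At day 2 alphaKO was above fullKO by 1.15 ± 0.07 (adjusted p = 2.5e-18), and at day 4 they overlapped (0.07 ± 0.06, adjusted p = 0.447). The rise from day 0 to 2 was smaller in fullKO than in WT by a difference of -1.16 ± 0.12 (adjusted p = 5.26e-11), and its rise from day 2 to 4 larger by 0.42 ± 0.09 (adjusted p = 0.00047). In alphaKO it was the rise from day 2 to 4 that fell short, by a difference of -0.67 ± 0.09 (adjusted p = 7.02e-08). Its shortfall from day 0 to 2 did not pass (-0.23 ± 0.10, adjusted p = 0.0868), but did with no low-count filter (-0.23, adjusted p = 0.0133), where only these groups were fitted (-0.23, adjusted p = 0.0167), and without replicate 1 of alphaKO at day 0 (-0.30, adjusted p = 0.0254) or day 4 (-0.23, adjusted p = 0.0339).

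Cdh2 (chromosome 18, 16588877 to 16809246), N-cadherin, rose from low levels at day 0 in all genotypes and was lower in both knockout lines throughout. WT libraries had 13.4, 13.96 and 17.5 CPM at day 0, 166.3, 189.1 and 199.1 at day 2 and 239.3, 241.8 and 246.1 at day 4. In alphaKO they had 7.09, 7.93 and 8.63, then 122.0, 123.7 and 129.3, then 174.2, 190.0 and 174.8 CPM. In fullKO they had 5.18 and 4.43, then 58.4, 58.4 and 55.1, then 129.3, 120.0 and 121.9 CPM. The order WT, alphaKO, fullKO held on each day with no overlap. Against WT, alphaKO was at -0.91 ± 0.10, -0.56 ± 0.06 and -0.43 ± 0.05 on days 0, 2 and 4 (adjusted p = 6.89e-10, 1.32e-11 and 3.73e-09). For fullKO the values were -1.63 ± 0.13, -1.69 ± 0.06 and -0.97 ± 0.06 (adjusted p = 8.32e-14, 4.55e-27 and 1.78e-19). Between the lines, alphaKO was above fullKO by 0.71 ± 0.15, 1.12 ± 0.06 and 0.54 ± 0.06 (adjusted p = 0.000178, 7.56e-20 and 9.56e-11). The fold rise from day 0 to 2 was 12.4 in WT, 15.8 in alphaKO and 11.9 in fullKO. On the log2 scale it exceeded WT in alphaKO by 0.35 ± 0.12 (adjusted p = 0.0195), but by 0.22 (adjusted p = 0.162) without replicate 3 of WT at day 0, 0.27 (adjusted p = 0.0616) without replicate 1 of WT at day 2, and 0.27 (adjusted p = 0.105) without replicate 1 of alphaKO at day 0. Between days 2 and 4 the rise in fullKO (1.11 ± 0.06) exceeded that in WT (0.39 ± 0.05) by 0.72 ± 0.08 (adjusted p = 1.67e-09).

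Nes and Cdh2 are also expressed by fibroblast-like cells, and most fibroblast markers were lower too. Of 15 such genes tested, 14, 13 and 13 were lower than WT in alphaKO on days 0, 2 and 4, and 14, 15 and 11 in fullKO. Over all genes tested, 20.9%, 20.3% and 24% were lower in alphaKO on these days, and 17.7%, 23.8% and 24.5% in fullKO. Col1a1, a collagen chain, was at -1.74 ± 0.11 in alphaKO and -2.63 ± 0.12 in fullKO at day 4, and Fbln2, an extracellular matrix protein, at -2.32 ± 0.15 and -3.07 ± 0.16. The summed level of the list was 6214 to 7746 CPM in WT, 5375 to 6911 in alphaKO and 3609 to 3876 in fullKO at day 0, and 4495 to 4616, 2490 to 3021 and 3280 to 3443 at day 4. At day 2 it was 2491 to 2629 in WT, 2160 to 2267 in alphaKO and 1516 to 1587 in fullKO. No marker of the list was at 0 in any group. Between days 0 and 2 in WT the list's summed level went down while Nes and Cdh2 rose. The list's part in the values of Nes and Cdh2, over days or between genotypes, was not tested.

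RefSeq promoter sequences (GRCm38.p6) were held for 7 of the 10 members, and 3 of them are shown because their genes moved the same way in both knockout lines on days 2 and 4: Nes and Zic1, which were lower, and Olig2, which was higher. Each line gives the bases upstream of the RefSeq start that lie outside annotated exons, 5′ to 3′ on the gene's own strand, with GC boxes (GGGCGG or its reverse complement) and CCAAT boxes (CCAAT or its reverse complement) in capitals. The Nes window is chr3:87970843-87971077 on the plus strand, the Zic1 window chr9:91365811-91366018 on the minus strand and the Olig2 window chr16:91225300-91225456 on the plus strand.
Nes: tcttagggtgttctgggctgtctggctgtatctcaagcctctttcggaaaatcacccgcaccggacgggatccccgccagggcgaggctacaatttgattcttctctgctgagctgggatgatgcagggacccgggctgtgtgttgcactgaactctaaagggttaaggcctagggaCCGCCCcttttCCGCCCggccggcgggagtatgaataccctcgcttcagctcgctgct
Zic1: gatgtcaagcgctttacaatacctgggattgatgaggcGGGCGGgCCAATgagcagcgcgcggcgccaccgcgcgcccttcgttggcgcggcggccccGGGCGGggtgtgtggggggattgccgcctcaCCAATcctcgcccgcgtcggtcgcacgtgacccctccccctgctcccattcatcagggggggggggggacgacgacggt
Olig2: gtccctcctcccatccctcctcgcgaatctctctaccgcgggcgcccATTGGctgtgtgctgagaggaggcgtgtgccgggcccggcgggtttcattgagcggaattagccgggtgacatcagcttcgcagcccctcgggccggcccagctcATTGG
The motifs were counted on both strands in the full 250 bases upstream of the RefSeq start, of which the lines above leave out annotated exon bases. Nes had 2 GC boxes and no CCAAT box, and Zic1 had 2 of each. Olig2 had 2 GC boxes, 2 CCAAT boxes and 1 TATA box (TATAAA), of which only the CCAAT boxes lie in the part shown. Of 32851 promoters of that length in the table, 32.7% held a GC box, 33.8% a CCAAT box and 12.4% a TATA box. AGGTCA, the short repeat unit bound by retinoid receptors, was in none of the members' windows and in 14% of all promoters. CpG pairs numbered 15 in Nes, 27 in Zic1 and 22 in Olig2, against a median of 6 over all promoters. These matches are descriptions of letters in a window and not binding sites.

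To compare levels between genes, CPM were divided by the summed exon length in kilobases (RPKM). In WT at day 0, Olig2 led with 12.3 ± 0.915 (SD, n = 3) RPKM, followed by Nes with 7.85 ± 0.332, Sox3 with 5.75 ± 0.880 and Cdh2 with 1.85 ± 0.276. No pair of neighbours in that order overlapped, except Pax3 and Nkx6-1 at the bottom. At day 2 Nes led with 44.9 ± 1.79, then Cdh2 with 22.9 ± 2.08 and Sox1 with 12.9 ± 0.720. Irx3 (6.14 ± 1.22) and Sox3 (4.81 ± 0.764) followed and overlapped, as did Pax6 and Nkx6-1 lower down, and Olig2 was last with 0.440 ± 0.0866. By day 4 Nes stood at 93.4 ± 6.83 and Cdh2 at 30.1 ± 0.426, with Irx3 (5.92 ± 0.107) and Zic1 (3.50 ± 0.0384) next. Sox1 had dropped to 1.15 ± 0.152, between Pax3 (1.70 ± 0.312) and Sox3 (0.806 ± 0.0770). The knockout lines kept Nes, Cdh2 and Irx3 on top at day 4. In alphaKO they stood at 37.8 ± 5.54, 22.3 ± 1.11 and 5.56 ± 0.485 RPKM, followed by Sox1 at 5.27 ± 0.887 and overlapping Irx3. In fullKO they stood at 36.04 ± 3.09, 15.3 ± 0.612 and 8.61 ± 0.664, followed by Sox3 at 3.39 ± 0.405. At day 2 in fullKO, Nes (12.98 ± 0.360), Sox1 (12.2 ± 0.860) and Sox3 (11.01 ± 0.862) were neighbours whose libraries overlapped, where WT had a clear lead of Nes.

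Set against each other, the knockout lines differed in 4 of 10 members at day 0 (29% of all genes called), 6 at day 2 (25.3%) and 5 at day 4 (32.7%). Cdh2 and Irx3 were higher and Pax6 lower in alphaKO at day 0, and the remaining call, Nkx6-1, compares 8 counts with 0, at least 1.59-fold against a floor of 3 counts. That call (adjusted p = 0.0259) was lost with DESeq2 (0.0532), with no low-count filter (0.0882), and without replicate 3 of alphaKO (0.0768) or replicate 1 (0.157) or 2 (0.131) of fullKO at day 0. Nes at day 0 did not pass (0.22 ± 0.10, adjusted p = 0.0789), but did with no low-count filter (0.22, adjusted p = 0.0121) and without replicate 1 of alphaKO at day 0 (0.30, adjusted p = 0.021), of alphaKO at day 4 (0.22, adjusted p = 0.0307) or of fullKO at day 0 (0.37, adjusted p = 0.0274). Irx3 at day 0 differed by 1.26 ± 0.33 (adjusted p = 0.00246). Sox1, Nes and Cdh2 were higher and Sox3, Olig2 and Nkx6-1 lower in alphaKO at day 2. Sox1, Pax6 and Cdh2 were higher and Sox3 and Irx3 lower in alphaKO at day 4. The SoxB1 genes thus stood in opposite order in the lines, with Sox1 higher in alphaKO (0.59 ± 0.08 at day 2, adjusted p = 1.08e-07) and Sox3 higher in fullKO (alphaKO against fullKO -0.93 ± 0.13 at day 2, adjusted p = 1.89e-07, and -0.82 ± 0.17 at day 4, adjusted p = 0.00017). Pax3 and Zic1 were called between the lines on no day.

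The change over time also differed from that of WT for 6 of 10 members in alphaKO between days 0 and 2 (32.2% of all genes called) and 6 between days 2 and 4 (28.4%). In fullKO it was 5 (28.6%) and 6 (23.6%). In alphaKO the call of Nkx6-1 from day 0 to 2 rests on the 1 read of WT at day 0 and has no size given here; the sizes of the others stand with each gene above. Sox3 was called in all 4 of these comparisons, while Pax3 and Zic1 were called in none. Cdh2 in alphaKO from day 2 to 4 did not pass (0.13 ± 0.08, adjusted p = 0.22), but did without replicate 1 of WT at day 2 (0.20, adjusted p = 0.0482).

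Over the 9 group means of log2 CPM (with 0.5 added), Pax3 and Zic1 ran closest together of all member pairs with Pearson's r = 0.997, and Olig2 ran opposite to both with r = -0.991. Nes and Cdh2 had r = 0.962, while Sox1 and Sox3 had 0.595. With the other 8 members Sox1 ran from -0.17 (Olig2) to 0.395 (Pax6), with 0.112 to Nes and 0.306 to Cdh2. All points share the same libraries and the common course over 3 days, so these coefficients describe likeness of shape and carry no test. By the same measure, among 11940 other genes with a group mean of at least 5 CPM, the closest to Sox1 was Fzd10 (0.978), to Sox3 Rsph4a (0.969), and to Pax6 Rbak (0.970). Trim44 was closest both to Pax3 (0.995) and to Zic1 (0.997). Fam149a was closest to Nes (0.995), Zfp697 to Cdh2 (0.995), Srrm1 to Olig2 (0.997), Greb1 to Nkx6-1 (0.975) and Dgkk to Irx3 (0.986).

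Counts for the lists that follow stand beside the shares over all genes tested. In alphaKO 17.7%, 19.9% and 28.7% of all genes were higher and 20.9%, 20.3% and 24% lower on days 0, 2 and 4. In fullKO 16.2%, 23.8% and 25.1% were higher and 17.7%, 23.8% and 24.5% lower. A list count near these shares is not a result about the list. Around the members, 17 other progenitor genes could be tested of 20 listed. At day 0 5 were higher and 7 lower than WT in each knockout line, at day 2 3 and 6 in alphaKO and 4 and 8 in fullKO. By day 4 12 were higher and 1 lower in alphaKO, with a median of 0.79, and 6 higher and 4 lower in fullKO, with a median of 0.06. In alphaKO, Nr2f1 and Dach1, both transcription regulators of neural progenitors, went from -1.58 ± 0.16 and -1.74 ± 0.14 at day 2 to 1.24 ± 0.10 and 1.05 ± 0.10 at day 4. The 1 gene lower at day 4 was Vim, vimentin, another intermediate filament gene, at -0.93 ± 0.06 in alphaKO and -0.98 ± 0.06 in fullKO. It thus moved in the direction of Nes. Pou3f1, a POU factor of early neural and epiblast cells, was at -2.50 ± 0.10 in alphaKO and -1.62 ± 0.11 in fullKO at day 0, the direction of Sox3 on that day.

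Of 20 dorsal genes listed beside Pax3 and Zic1, 19 were tested. At day 4 8 were higher and 6 lower in alphaKO and 5 higher and 7 lower in fullKO, so the list did not follow Pax3 and Zic1 as a whole. For alphaKO the day 0 counts were 3 higher and 3 lower and the day 2 counts 3 and 6, and for fullKO 4 and 3, then 6 and 5. Zic2, a relative of Zic1 also expressed in stem cells, was at -1.64 ± 0.08 in alphaKO and -1.50 ± 0.09 in fullKO at day 0. Gdf7, a BMP family ligand of the roof plate, was at -1.72 ± 0.47 in alphaKO and -1.27 ± 0.44 in fullKO at day 4. Its mean levels there were low, at 0.593 and 0.827 CPM against 1.98 in WT. Other dorsal genes went the other way in both lines. Bmp7 was at 2.20 ± 0.19 in alphaKO and 1.12 ± 0.24 in fullKO at day 0. Olig3 was called higher at day 4, at 0.865 and 1.44 CPM against 0.0433 in WT, too near 0 for a size to be given. Lmx1a, a roof plate factor, was at 2.36 ± 0.35 in fullKO at day 2 and 2.26 ± 0.38 at day 4.

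Of 20 ventral and Hedgehog pathway genes listed beside Nkx6-1 and Olig2, 19 were tested. At day 4 Shh, the Hedgehog ligand, was at 2.99 ± 0.21 in alphaKO and 3.21 ± 0.21 in fullKO, with mean levels of 12.8 and 14.9 CPM against 1.62 in WT. Gli1, a target and effector of the pathway, was at 2.76 ± 0.11 and 2.46 ± 0.11, and Ptch1, the receptor that is itself a target, at 2.02 ± 0.06 and 2.72 ± 0.06. Nkx2-2, a factor of the most ventral progenitors, was at -3.35 ± 0.51 in alphaKO. Olig1, the neighbour and relative of Olig2, fell from day 0 to 2 in WT by -6.46 ± 0.24, as Olig2 did, and then rose by 1.31 ± 0.47 to day 4, where Olig2 fell. At day 2 it was higher than WT in alphaKO (1.99 ± 0.41) and fullKO (2.97 ± 0.35). The list as a whole was split, with 5 higher and 7 lower in alphaKO at day 0, 9 and 6 at day 2, and 8 and 7 at day 4. In fullKO the counts were 6 and 7, 7 and 8, and 6 and 7.

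Genes of the head-to-tail axis showed no single direction either. Of 21 tested, 3 were higher and 6 lower in alphaKO at day 0, 6 and 4 at day 2 and 8 and 4 at day 4, and in fullKO 3 and 9, 4 and 7, and 4 and 4. Gbx2, a hindbrain-side factor of the midbrain-hindbrain boundary, was at 2.12 ± 0.12 and 2.51 ± 0.11 at day 2 in alphaKO and fullKO. Of 22 neuronal genes tested, 13 were higher at day 4 and 3 lower in alphaKO, with a median of 1.43, and 7 higher and 4 lower in fullKO, with a median of 0.08. Neurog1, a proneural factor, was at 6.08 ± 0.47 in alphaKO (7.56 against 0.112 CPM), and Elavl3, an RNA-binding protein of young neurons, at 3.15 ± 0.22. In fullKO, Isl1, a factor of motor and sensory neurons, was at 2.60 ± 0.23. On days 0 and 2 the neuronal counts were 3 higher and 8 lower, then 4 and 11, in alphaKO, and 5 and 4, then 4 and 5, in fullKO.

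**Figure D4:**
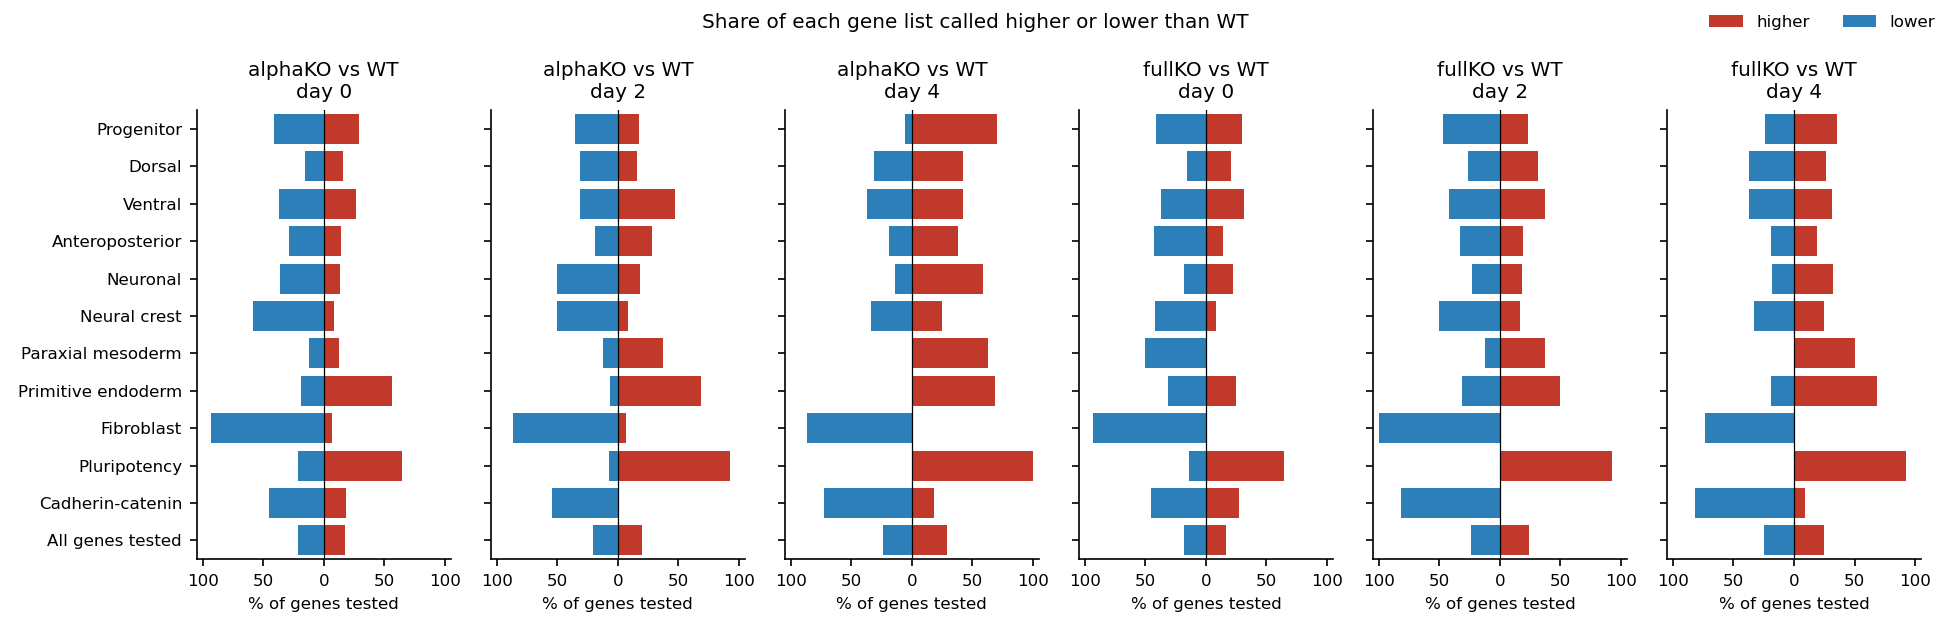
Share of each gene list called higher (right) or lower (left) than WT, in percent of the genes tested (horizontal axis), for each knockout line and day, with all 18412 genes in the bottom row. Pluripotency genes lie mostly on the right and fibroblast genes mostly on the left in all panels, and the neuronal and progenitor lists lean right in alphaKO at day 4.

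Among other cadherins and the catenins, most genes called were lower, as Cdh2 was. Of 11 cadherin and catenin genes tested, 5, 6 and 8 were lower in alphaKO on days 0, 2 and 4 and 5, 9 and 9 in fullKO, against 2, 0 and 2 and 3, 0 and 1 higher. Cdh1, E-cadherin, was at 1093 CPM in WT at day 2 and 1108 at day 4, and at -1.30 ± 0.05 and -2.05 ± 0.05 in alphaKO and -1.26 ± 0.05 and -1.01 ± 0.05 in fullKO. Cdh11, a cadherin of mesenchyme, was at -3.10 ± 0.14 in fullKO at day 0. Among those higher at day 0 were Cdh4 (1.19 ± 0.19) and Ctnna1 (0.47 ± 0.04) in alphaKO and Ctnnd2 (0.96 ± 0.17) in fullKO.

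Markers of other lineages were present as well. Of 16 primitive endoderm genes tested, 9, 11 and 11 were higher in alphaKO on days 0, 2 and 4 and 4, 8 and 11 in fullKO, against 3, 1 and 0 and 5, 5 and 3 lower, and their summed level at day 4 was 5067 to 5291 CPM in WT, 5904 to 6584 in alphaKO and 4221 to 4985 in fullKO. In WT the collagen chains Col4a1 and Col4a2 made 2322 and 1483 CPM of that sum, against 75.5 for Gata6 and 0.389 for Ttr. Ttr and Afp were at 0 in all groups of day 0. Of 8 paraxial mesoderm genes tested, 1, 3 and 5 were higher in alphaKO on days 0, 2 and 4 and 0, 3 and 4 in fullKO, against 1, 1 and 0 and 4, 1 and 0 lower, with Meox1 at 4.80 ± 0.34 and 3.30 ± 0.38 at day 4, while Myf5 and Msgn1 were at 0 in all groups of that day. Of 12 neural crest genes tested, which share the dorsal origin of Pax3, 7, 6 and 4 were lower in alphaKO on days 0, 2 and 4 and 5, 6 and 4 in fullKO, against 1, 1 and 3 and 1, 2 and 3 higher. Ets1 was at -1.67 ± 0.07 in alphaKO and -1.36 ± 0.07 in fullKO at day 4, Sox10 at -1.23 ± 0.26 in alphaKO at day 2, and Tfap2b at -3.03 ± 0.49 in fullKO at day 2. Among those higher at day 4 were Tfap2b (2.72 ± 0.25) and Ngfr (1.28 ± 0.16) in alphaKO and Ednrb (1.44 ± 0.17) in fullKO. The part of these cell types in the values of the 10 members was not tested.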

How the data were processed

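Stranded mRNA libraries of KH2 cells were sequenced. The authors deposited raw read counts for each gene in each library. FastQC, STAR 2.7.1a and the mm10 build are named in the submitters' processing notes; how reads were counted, with which strand setting and annotation, is not given in the sources used here. Of 55471 IDs, 55230 matched GENCODE M21 (GRCm38), which gave symbols, positions and exon lengths, and 241 did not.

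Counts were filtered with filterByExpr and TMM-scaled, and the 9 groups were fitted together (17 residual degrees of freedom) by the quasi-likelihood method of edgeR 4.0.16 in R 4.3.3, with p-values adjusted over 18412 genes in each of 19 comparisons. The threshold was 0.05. The model was also run on counts simulated around the WT day 0 means, with the same spread setting for every gene. Those counts are simpler than these data, so that run does not measure accuracy here. Where a group had 3 counts or fewer, counts and an exact 95% interval of their ratio, or a bound against a floor of 3 counts, replace fitted values, and such intervals and bounds cover counting error only. Replicates of a group differed by more than sampling noise, with a chi-square per degree of freedom of 2.31 to 6.27.

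Named were all 10 members in each comparison, Nap1l1, from each of 11 lists (185 genes) some of up to 4 called genes with the largest change in a comparison, and the closest genes by correlation. Some genes that this rule takes are left out of the text. Members and lists were chosen with earlier results of these data known. Alternatives were DESeq2 1.42.0, RLE scaling, no filter, a stricter filter (1 CPM in 3 libraries), a replicate block, only the groups compared, and each library left out in turn.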

Additional observations from a re-analysis of the deposited data

Results flagged for a closer look

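In 23 cases a member's change over time in a knockout line differed from that in WT by a test of the difference itself (log2 scale, knockout minus WT, edgeR's quasi-likelihood test with Benjamini-Hochberg adjustment over 18412 genes). The size is left out for Nkx6-1 in alphaKO from day 0 to 2, where WT had 1 count at day 0, and the other 22 follow. From day 0 to 2 in alphaKO these were Sox3 (2.41), Pax6 (2.47), Cdh2 (0.35), Olig2 (1.46) and Irx3 (0.65). From day 2 to 4 in alphaKO they were Sox1 (1.69), Sox3 (0.98), Pax6 (0.78), Nes (-0.67), Olig2 (1.74) and Nkx6-1 (2.40). In fullKO from day 0 to 2 they were Sox1 (-0.61), Sox3 (3.13), Nes (-1.16), Olig2 (1.90) and Irx3 (1.82). From day 2 to 4 in fullKO they were Sox3 (0.87), Pax6 (-0.79), Nes (0.42), Cdh2 (0.72), Nkx6-1 (1.87) and Irx3 (0.87). The adjusted p of Cdh2 and Irx3 in alphaKO from day 0 to 2 (0.0195 and 0.0279) and of Olig2 in alphaKO from day 2 to 4 (0.0165) were the highest of the 22. No group had the 4 libraries needed to look for a single library far from the others.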

How the results depend on the processing

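The 10 members in 19 comparisons gave 190 results, of which 137 were called. Leaving out 11 with a group of 3 counts or fewer, 179 were followed, 131 of them called. Under the 6 alternatives that keep all libraries, 1064 of 1073 values kept their direction and call, and with 1 library left out 4596 of 4654 did. The 9 called results that lost their call when a library was left out, and the Nkx6-1 calls at day 0 that did, are given in the report. Results that turned direction when a library was left out were uncalled throughout, and their ranges follow. In WT from day 2 to 4, Irx3 ran from -0.18 to 0.10. Against WT in alphaKO, Pax3 at day 0 ran from -2.05 to 0.0481 and Nkx6-1 at day 4 from -0.0875 to 0.0591, and in fullKO Sox1 at day 4 ran from -0.23 to 0.0114. Between alphaKO and fullKO, Sox3 (-0.41 to 0.0374) and Zic1 (-0.0969 to 1.04) did so at day 0, Pax3 (-0.27 to 0.0257), Pax6 (-0.11 to 0.0145) and Zic1 (-0.12 to 0.21) at day 2, and Nes (-0.0575 to 0.14), Olig2 (-0.22 to 0.32) and Zic1 (-0.0327 to 0.17) at day 4. Among differences in change from WT they were, in alphaKO, Pax3 from day 0 to 2 (-1.08 to 1.02) and Irx3 from day 2 to 4 (-0.0105 to 0.27), and, in fullKO, Pax6 (-0.11 to 0.30), Cdh2 (-0.19 to 0.0761) and Zic1 (-0.69 to 0.31) from day 0 to 2 and Sox1 (-0.14 to 0.0980) and Pax3 (-0.18 to 0.11) from day 2 to 4. Counts of all genes called moved by less than 1.5 times under each alternative that keeps all libraries.

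Replicate numbers showed no clear pairing of the samples. Over 100 same-numbered pairs the correlation of deviations ran from -0.14 to 0.14, and 11 of 26 libraries matched their own number best. Low correlations cannot exclude that same-numbered libraries came from 1 culture series. With the number as a replicate block, Pax6 in alphaKO against WT at day 2 became called (-0.25, adjusted p = 0.0434), and no other member call changed. Depth limits Nkx6-1 and Pax3 at day 0, with 8 counts or fewer in each group, and Olig2 in WT at day 4, with 7. With 2 or 3 libraries a group, a value that misses the threshold does not show that groups are alike.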
